A study of Arabidopsis thaliana with 12 samples.

Results

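The genes described here are 20 *Arabidopsis* genes that were close to silent at 22°C in both WT and *cry1* seedlings and abundant after 2 h at 44°C in both. They were chosen by their measured levels, out of 26891 genes in the deposited table. A gene was kept if its mean was under 1 CPM (the count of a gene scaled to a common library total) in both genotypes at 22°C, if it reached 10 CPM or more in WT at 44°C, and if its mean in *cry1* at 44°C was between 0.5 and 2 times that in WT. Small heat-shock proteins (HSPs), heat-shock transcription factors (HSFs) and *APX2* were left out by name. Since the selection used the level in all 4 groups, the levels of the selected genes and the ratios between them are given as a description, with no p-value. Where counts of test calls among them are given, they stand beside the share of all genes, and nothing is read from them.

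The study asked how the blue-light receptor CRY1 affects the response to heat stress. Whole seedlings of the Columbia ecotype, either WT or *cry1* mutant, were grown in continuous light at 22°C and moved to blue light for 1 day. They were then kept in blue light for 2 h at 22°C (mock) or at 44°C (heat stress, HS), which gave 4 groups of 3 biological replicates each and 12 libraries. The labels give 7 days of growth before the blue light and call the seedlings 8-day-old, whereas the methods of the study give a shorter period of white light. The *cry1* group is a single mutant line, and every group, controls included, received the blue light.

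Heat shock in plants is sensed through unfolded protein and other cues, and HSFs then bind heat-shock elements, which are inverted repeats of the short unit GAA, in front of their target genes. The best-known targets are chaperones, such as HSP101, HSP70 and the small HSPs, which hold or refold damaged proteins. A family of long terminal repeat (LTR) retrotransposons, COPIA78 or *ONSEN*, carries heat-shock elements in its LTRs and is known in *Arabidopsis* for being transcribed under heat. Many members of the heat-shock response are silent without heat, so that their transcripts appear from almost nothing.

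The sequences in front of 4 selected genes are shown because they hold the pair of inverted units that defines the element searched here, GAANNTTC or TTCNNGAA. Each is the 250 bases before the annotated start, 5′ to 3′ on the strand of the gene, from RefSeq (TAIR10.1), with the matched bases in capitals. The first belongs to AT1G71000, a DnaJ-domain chaperone, at chr1:26770178-26770427 on the minus strand. The others belong to *CML37*, a calmodulin-like calcium sensor, at chr5:16943821-16944070 on the minus strand, to *ACS7*, an enzyme of ethylene synthesis, at chr4:13274950-13275199 on the plus strand, and to *GLYI7*, a glyoxalase I family enzyme, at chr1:30150647-30150896 on the plus strand.
AT1G71000: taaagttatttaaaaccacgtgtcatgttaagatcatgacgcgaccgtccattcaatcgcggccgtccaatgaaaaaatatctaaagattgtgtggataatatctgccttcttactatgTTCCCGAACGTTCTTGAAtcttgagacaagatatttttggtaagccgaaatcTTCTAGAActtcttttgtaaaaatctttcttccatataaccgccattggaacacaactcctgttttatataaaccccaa
CML37: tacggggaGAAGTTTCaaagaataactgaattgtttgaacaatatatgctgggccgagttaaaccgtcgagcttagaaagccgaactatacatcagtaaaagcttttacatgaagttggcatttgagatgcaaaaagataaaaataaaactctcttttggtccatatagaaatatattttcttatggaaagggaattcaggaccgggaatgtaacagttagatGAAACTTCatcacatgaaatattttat
ACS7: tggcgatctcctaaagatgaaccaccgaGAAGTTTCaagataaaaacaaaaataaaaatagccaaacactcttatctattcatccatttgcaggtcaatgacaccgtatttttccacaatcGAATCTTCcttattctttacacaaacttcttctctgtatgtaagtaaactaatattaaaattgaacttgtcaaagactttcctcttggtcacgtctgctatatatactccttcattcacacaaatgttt
GLYI7: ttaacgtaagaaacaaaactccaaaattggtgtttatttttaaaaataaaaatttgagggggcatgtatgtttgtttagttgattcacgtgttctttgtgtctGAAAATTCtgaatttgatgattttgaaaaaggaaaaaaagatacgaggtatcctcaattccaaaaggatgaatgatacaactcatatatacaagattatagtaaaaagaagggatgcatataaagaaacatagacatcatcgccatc

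The COPIA78 copies carry their matches farther from the annotated start, so a stretch of 99 bases is shown for both selected copies, at chr1:3780853-3780951 for AT1G11265 and chr1:18013250-18013348 for AT1G48710, plus strand. The stretch covered bases 382 to 284 before the annotated start, and its letters were identical in the 2 copies. The capitals mark 2 matches of TTCNNGAA, which begin 342 and 331 bases before the start.
AT1G11265: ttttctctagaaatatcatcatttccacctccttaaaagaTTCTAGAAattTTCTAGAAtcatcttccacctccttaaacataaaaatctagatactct
AT1G48710: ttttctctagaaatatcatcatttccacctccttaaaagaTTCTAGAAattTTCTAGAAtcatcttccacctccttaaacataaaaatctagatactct

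Before the selected genes, the libraries were checked against their labels. *CRY1* itself (AT4G08920) ranged from 151 to 226 CPM in the 6 WT libraries, from 0.107 to 0.26 CPM in *cry1* at 22°C, and was listed at 0 in all 3 *cry1* libraries at 44°C. The summed counts of a library ranged from 10539271 to 21752824, and the 3 deepest libraries were all *cry1* at 22°C. Summed levels of 6 markers of green seedling tissue averaged 34699 CPM in WT and 22390 CPM in *cry1* at 22°C, and 8869 and 7045 CPM at 44°C, with 6 of 6 markers above 1 CPM in every group. Summed levels of 12 seed markers were higher in *cry1* than in WT, at 92.7 to 409 CPM against 24.2 to 38.3 CPM at 22°C and 69.5 to 144 CPM against 6.94 to 16.1 CPM at 44°C, and no seed marker was at 0 in all libraries of *cry1*. The 5 pollen markers in the table, of 8 listed, summed to 7.44 CPM or less on average in any group. The part of these marker differences in the values below was not tested.

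Of the 26891 genes, 7122 averaged under 1 CPM at 22°C in both genotypes, and 885 of all genes were listed at 0 in all 6 libraries at 22°C. Only 258 of the 7122 silent genes reached 1 CPM in WT at 44°C, and 34 of them (0.477%) reached 10 CPM. The ratio limits kept 28 of these 34, and 8 of the 28 were among the heat genes left out by name, which leaves the 20 described here. Of the 20, 14 were annotated as protein coding, 3 as long noncoding RNA (lncRNA), 2 as pseudogenes and 1 as another RNA.

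The 20 genes together summed to 6.35 ± 1.33 CPM in WT and 7.54 ± 0.131 CPM in *cry1* at 22°C (SD, n = 3). At 44°C the sums were 1918 ± 179 CPM in WT and 2568 ± 86.8 CPM in *cry1*. AT3G07365 alone averaged 953 CPM in WT and 1258 CPM in *cry1* at 44°C. Its reads cannot be told apart from those of *HSP17.4*, an overlapping gene left out by name, so these sums share that limit. Whole seedlings were sampled, so more cells expressing a gene and more RNA per cell cannot be told apart. Of the 120 values at 22°C, 31 were 0 and the highest was 1.34 CPM, while the lowest of the values at 44°C was 8.80 CPM. No gene therefore had a library at 22°C that overlapped a library at 44°C, which the limits of the selection largely fix.

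**Figure D1:**
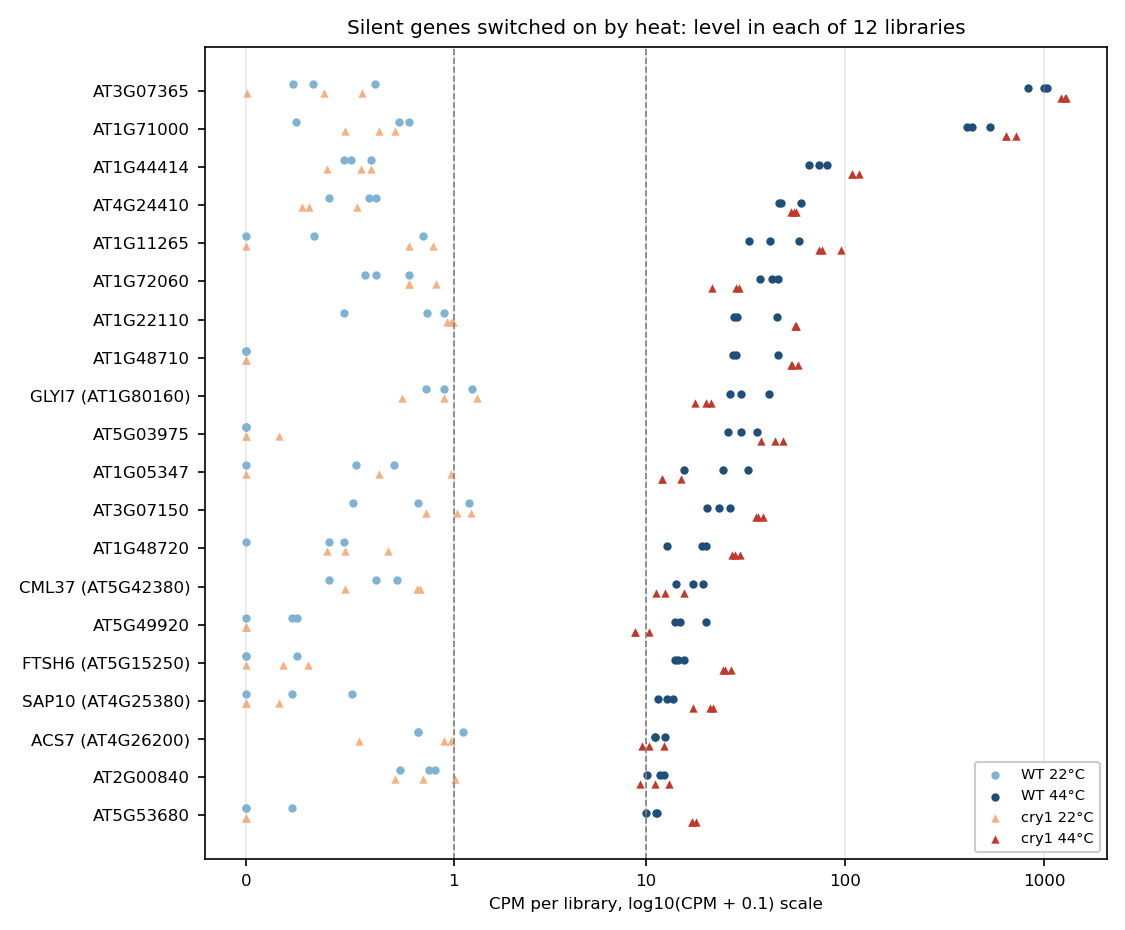
Level of each of the 20 selected genes in each of the 12 libraries, as CPM on a log10(CPM + 0.1) scale, with circles for WT and triangles for *cry1*, light for 22°C and dark for 44°C. The dashed lines mark the 1 and 10 CPM limits of the selection; the highest value at 22°C was 1.34 CPM and the lowest at 44°C was 8.80 CPM, and AT3G07365 and AT1G71000 stand far to the right of the other genes.

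The sum was dominated by 2 genes. AT3G07365 and AT1G71000 took 73.6% ± 1.70 of the summed CPM of the 20 genes in WT at 44°C and 75.1% ± 0.53 in *cry1* (SD, n = 3). These shares take the reads assigned to AT3G07365 as given. Of the other genes, 10 averaged between 20 and 100 CPM in WT at 44°C and 8 averaged between 10 and 20 CPM. The ratio of the 44°C mean to the 22°C mean in WT had a median of 156, with each gene at 0 at 22°C set at its lower bound. In the edgeR fit of 44°C against 22°C in WT, 13.3% of the 25580 genes tested were called higher and 53.1% lower, and 20 of the 20 selected genes were called higher, as the selection fixes. With library totals as the scale, the median of all genes tested was shifted by -0.85 (log2) at 44°C in WT.

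Protein quality control was represented by 2 genes. AT1G71000 encodes a DnaJ-domain protein, a class of cochaperones that deliver substrates to HSP70 and stimulate its ATPase. It was measured at 0.484, 0.560 and 0.0790 CPM in WT and 0.460, 0.215 and 0.364 CPM in *cry1* at 22°C. At 44°C it was at 411, 536 and 434 CPM in WT and 642, 725 and 644 CPM in *cry1*, so that every *cry1* library lay above every WT library. All its counts were whole numbers, as for reads assigned to 1 gene, and its level per length (TPM, which also divides by gene length, 516 in WT at 44°C) was the second highest of the 20. The 4 matches before its start began 131, 126, 121 and 79 bases upstream, and the first 3 overlap to form 2 matches of 3 units, the only 3-unit matches among the selected genes.

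*FTSH6* encodes a chloroplast FtsH metalloprotease, known in *Arabidopsis* to control the abundance of the plastid small HSP HSP21. At 22°C it had 1 count in the 3 WT libraries and 3 counts in the 3 *cry1* libraries. At 44°C it was at 15.6, 14.0 and 14.5 CPM in WT and 26.9, 25.1 and 24.4 CPM in *cry1*, with no overlap. The ratio of 44°C to 22°C was 577 in WT, with a counting interval of 103 to 22838 (95%, counting error only), since it rests on a single count. Per length it was the lowest of the 20 in WT at 44°C, at 8.89 TPM. One match of the element began 182 bases before its start.

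The highest level of all belonged to a noncoding RNA that lies across a small HSP gene. AT3G07365 is annotated as an lncRNA of 453 bases on chromosome 3, and all of it overlaps exons of *HSP17.4* (AT3G46230), a cytosolic small HSP on the opposite strand, which was left out by name. AT3G07365 was at 0.0726, 0.34 and 0.116 CPM in WT and 0.0014, 0.28 and 0.148 CPM in *cry1* at 22°C. At 44°C it was at 831, 1032 and 996 CPM in WT and 1269, 1288 and 1218 CPM in *cry1*, above WT in every library. *HSP17.4* was at 2163, 2357 and 2318 CPM in WT and 2665, 2752 and 2659 CPM in *cry1* at 44°C. The 12 values of AT3G07365 were all non-whole counts, as occur when RSEM divides reads among genes that share them. The library kit marks strand, but the methods of the study give RSEM with its defaults, under which counting does not use strand, so the reads of AT3G07365 and of *HSP17.4* cannot be told apart.

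AT5G03975 is an lncRNA of 299 bases on chromosome 5, all of it across exons of AT5G25450, which is annotated as a subunit of a cytochrome bd ubiquinol oxidase and lies on the opposite strand. It had no count in WT at 22°C and 1 count in *cry1*. At 44°C it was at 25.8, 36.5 and 30.3 CPM in WT, at least 408-fold higher than the floor of 3 counts over the 3 libraries at 22°C, and at 49.0, 44.8 and 38.1 CPM in *cry1*. The lowest *cry1* library was above the highest WT library. AT5G25450 itself was at 238, 287 and 249 CPM in WT and 486, 524 and 485 CPM in *cry1* at 44°C, against means of 1.62 and 1.99 CPM at 22°C. The same limit on strand applies to this pair.

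The third lncRNA, AT1G05347 on chromosome 1, overlaps 2 genes. It shares 734 exonic bases with AT1G17860, a Kunitz family protease inhibitor gene on the opposite strand, and 251 bases with *EGY3*, a chloroplast protein gene on the same strand. AT1G05347 was at 32.9, 24.5 and 15.6 CPM in WT and 12.04, 12.1 and 15.1 CPM in *cry1* at 44°C, so *cry1* was lower, and the nearest libraries of the 2 genotypes were only 15.6 and 15.1 CPM. *EGY3* averaged 9.67 CPM in WT at 22°C, 1314 CPM in WT at 44°C and 1471 CPM in *cry1* at 44°C, whereas AT1G17860 averaged 62.2, 40.1 and 36.4 CPM in the same groups. AT1G05347 had the most variable level of the selected genes in WT at 44°C, with a coefficient of variation (CV) of 35.6%, and 10 of its 12 counts were not whole numbers. Reads that lie in the overlaps cannot be assigned to 1 of the 3 genes with certainty.

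**Figure D2:**
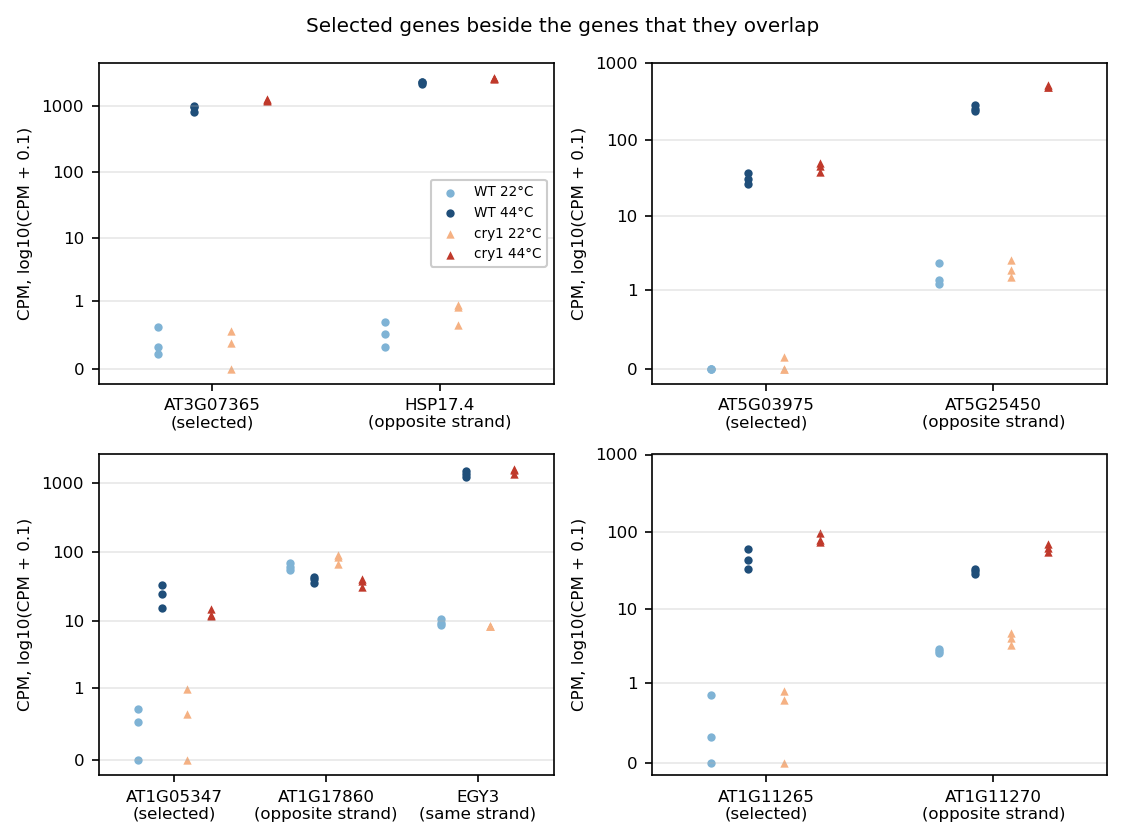
Level in each library, on a log10(CPM + 0.1) scale, of 4 selected genes and of the genes that they overlap, with colors and symbols for the 4 groups. *HSP17.4*, AT5G25450, *EGY3* and AT1G11270 are higher at 44°C than at 22°C in every library of both genotypes, as are the selected genes, and AT1G17860, at 62.2 CPM in WT at 22°C and 40.1 CPM at 44°C, is lower.

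Of the 20 genes, 3 belonged to retrotransposons of the COPIA78 family. AT1G11265 and AT1G48710 are full copies of 4059 bases, annotated as pseudogenes, whose sequences were 99.36% identical (26 differences). Reads from near-identical copies cannot be placed with certainty, and RSEM divides them, so the level of a single copy is uncertain. AT1G48720, annotated as a Copia-like polyprotein gene of 729 bases, begins 40 bases after AT1G48710 ends. It resembled AT1G11265, with 97.39% identity, from 418 bases before the annotated start of that copy to 306 bases after it.

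AT1G48710 was listed at 0 in all 6 libraries at 22°C. At 44°C it was at 27.6, 46.1 and 28.5 CPM in WT, at least 453-fold higher than the floor of 3 counts over the group at 22°C. In *cry1* it was at 54.1, 58.1 and 54.6 CPM, at least 1105-fold higher than that floor, and above every WT library. Both bounds take the division of reads among the copies as given. At 22°C the near-identical AT1G11265 was given 9.79 counts in WT and 25.08 in *cry1*. AT1G11265 was at 33.0, 59.2 and 42.4 CPM in WT and 74.4, 96.0 and 77.3 CPM in *cry1* at 44°C, also without overlap. WT replicate 2 was the highest WT library for both copies. The ratio of *cry1* to WT for AT1G11265, 1.839, was the highest of the 20 genes and the nearest to the upper limit of the selection.

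AT1G48720 was at 12.9, 19.2 and 20.2 CPM in WT and 27.2, 29.7 and 28.2 CPM in *cry1* at 44°C, against at most 0.414 CPM in any library at 22°C. The *cry1* to WT ratios of AT1G48710 and AT1G48720 were 1.634 and 1.627. AT1G11265 lies wholly in an intron of AT1G11270, an F-box gene on the opposite strand, with no exonic base shared. AT1G11270 was at 28.4, 32.6 and 30.9 CPM in WT and 54.8, 69.6 and 61.3 CPM in *cry1* at 44°C, against 2.75 and 4.09 CPM on average at 22°C.

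The family list held 8 COPIA78 copies, of which 2 met the selection. The selection fixed the rise of these 2 at 44°C. The other 6 copies were all called higher at 44°C in WT, where 13.3% of all genes tested were, though reads shared with the 2 selected copies may be counted among them. AT5G13205 missed the selection through its level at 22°C, 1.39 CPM in WT and 2.68 CPM in *cry1*, and averaged 26.2 CPM in WT and 41.3 CPM in *cry1* at 44°C. AT3G61330 missed it with 8.38 CPM in WT at 44°C, and was at 15.3 CPM in *cry1*. The remaining 4 copies averaged between 1.98 and 3.66 CPM in WT at 44°C and between 3.19 and 9.16 CPM in *cry1*. Among them, the libraries of the 2 genotypes overlapped at 44°C for AT1G21945, AT1G58140 and AT3G59720. The edgeR test called 3 of the 8 copies higher in *cry1* at 44°C and 0 lower, against 7.17% and 14.1% of all genes tested. Of the 6 copies not selected, 2 were called higher. Summed over the family, the 2 selected copies included, the level was 1.96 CPM in WT and 3.44 CPM in *cry1* at 22°C, and 95.1 to 162 CPM in WT and 203 to 242 CPM in *cry1* at 44°C, with no overlap between genotypes.

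**Figure D3:**
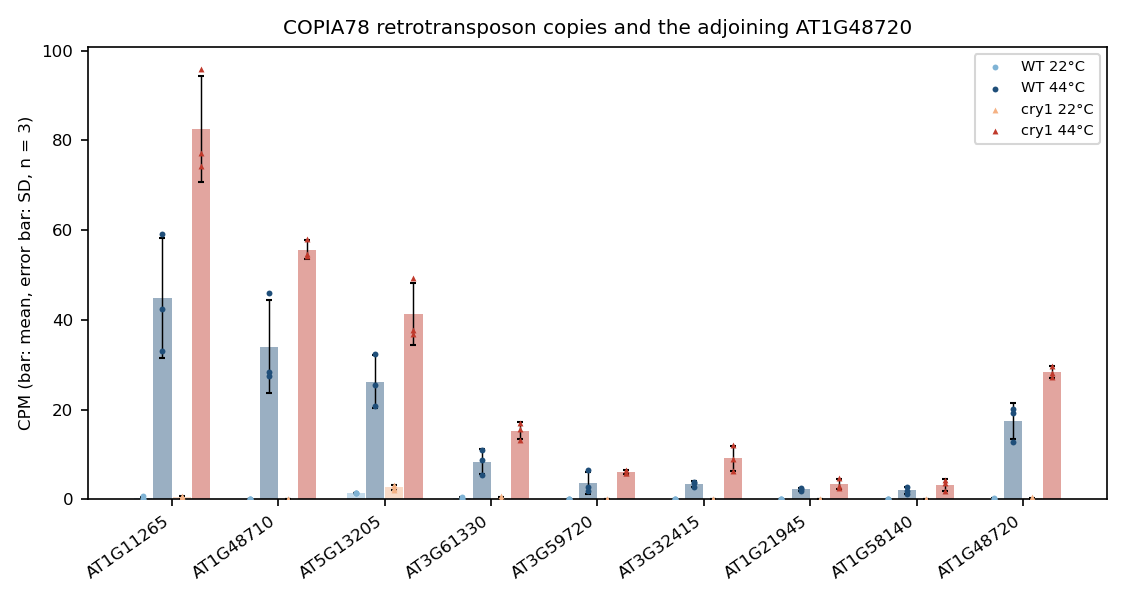
Level of the 8 COPIA78 copies and of the adjoining AT1G48720 in CPM, with bars for the mean of 3 libraries, error bars for the SD and points for single libraries. The bars at 22°C are close to 0, and the *cry1* mean at 44°C is above the WT mean for each copy, with 82.5 CPM against 44.9 CPM for AT1G11265 and 55.6 CPM against 34.0 CPM for AT1G48710.

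Among the genes of signaling and metabolism, *GLYI7* (AT1G80160) belongs to the glyoxalase I family, whose members act in the detoxification of methylglyoxal. It was the selected gene closest to the 22°C limit in WT, at 0.887, 0.700 and 1.26 CPM. At 44°C it was at 41.7, 30.2 and 26.6 CPM in WT and 21.3, 20.03 and 17.795 CPM in *cry1*, lower in every *cry1* library. One match of the element began 147 bases before its start.

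*CML37* encodes a calmodulin-like protein, a class that binds calcium and passes calcium signals on. It was at 14.1, 17.3 and 19.4 CPM in WT and 15.6, 12.5 and 11.3 CPM in *cry1* at 44°C, and the ranges overlapped. *ACS7* encodes an ACC synthase, the enzyme that makes the precursor of ethylene. It was at 11.1, 12.4 and 11.1 CPM in WT and 9.60, 10.3 and 12.3 CPM in *cry1* at 44°C, again with overlap. *ACS7* had the smallest ratio of 44°C to 22°C of the 20 genes in WT, 14.5, and was the only one with no other gene within 1500 bases. Both genes held 2 matches of the element, which began 242 and 27 bases before the start of *CML37* and 222 and 129 bases before that of *ACS7*.

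*SAP10* belongs to the stress-associated proteins, a family with A20 or AN1 zinc fingers. It was at 12.8, 13.7 and 11.5 CPM in WT and 21.7, 21.1 and 17.401 CPM in *cry1* at 44°C, with every *cry1* library above every WT library. At 22°C it rested on 4 counts in WT and 1 count in *cry1*. AT1G44414 encodes a zinc-ribbon domain protein, and it was the third highest of the 20, by CPM as well as per length. It was at 66.5, 74.5 and 81.4 CPM in WT and 119, 110 and 109 CPM in *cry1* at 44°C, without overlap. Only 36 bases of it lie across *CH1*, on the opposite strand, which averaged 225 CPM in WT at 22°C and 78.7 CPM at 44°C.

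AT5G53680 encodes an RNA-binding protein with RRM motifs, the domain by which many proteins hold single-stranded RNA. It had 1 count in WT and none in *cry1* at 22°C, and was at 9.96, 11.4 and 11.2 CPM in WT and 17.03, 17.9 and 17.1 CPM in *cry1* at 44°C. This made it the selected gene nearest to the 10 CPM limit. AT5G49920, of the Octicosapeptide/Phox/Bem1p family, which carries a protein interaction domain, was lower in every *cry1* library. It was at 20.02, 14.0 and 14.9 CPM in WT and 10.3, 8.81 and 8.80 CPM in *cry1* at 44°C, from 2 counts in WT and none in *cry1* at 22°C.

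AT1G72060, annotated as a serine-type endopeptidase inhibitor, was at 43.0, 37.4 and 46.3 CPM in WT and 29.5, 21.7 and 28.5 CPM in *cry1* at 44°C, lower in every *cry1* library. It shares 333 exonic bases with AT1G72070 on the opposite strand, which averaged 1.46 CPM in both genotypes at 44°C. Of the 12 counts of AT1G72060, 11 were not whole, so the assignment of reads in this overlap is uncertain. AT3G07150, annotated as an amino acid-ligase, was at 20.4, 23.53 and 26.6 CPM in WT and 36.1, 36.9 and 39.0 CPM in *cry1*. It shares 212 exonic bases with AT3G07140 on the opposite strand, which averaged 34.1 CPM at 22°C and 17.9 CPM at 44°C in WT. Of the 12 counts of AT3G07150, 7 were not whole, and reads in the overlap cannot be assigned with certainty. AT1G22110, annotated as a structural constituent of ribosome, was at 28.9, 27.7 and 45.5 CPM in WT and 56.8, 56.2 and 57.1 CPM in *cry1*, so that its WT libraries varied far more (CV 29.2%) than its *cry1* libraries (CV 0.82%). AT3G07150 and AT1G22110 were higher in every *cry1* library and lay near the 22°C limit in *cry1*, at 0.993 and 0.958 CPM.

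The other 2 genes overlapped between genotypes at 44°C. AT4G24410, an uncharacterized protein gene, was at 60.3, 47.0 and 47.8 CPM in WT and 53.6, 55.9 and 56.9 CPM in *cry1*. AT2G00840, an uncharacterized RNA of 417 bases, was at 12.3, 10.11 and 11.8 CPM in WT and 13.1, 9.36 and 11.1 CPM in *cry1*.

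Across the 20 genes at 44°C, the *cry1* to WT ratio ranged from 0.539 (AT1G05347) to 1.839 (AT1G11265), with a median of 1.44. The mean was higher in *cry1* for 13 genes and lower for 7. For 12 genes every *cry1* library was above every WT library, where 11.9% of the 25580 genes tested showed this, and for 4 genes (AT1G72060, *GLYI7*, AT1G05347 and AT5G49920) every *cry1* library was below, against 20.8%. The edgeR test called 11 of the 20 higher in *cry1*, against a background of 7.17%, and 3 lower (AT1G72060, *GLYI7* and AT5G49920), against 14.1%. AT1G11265, with the highest ratio, was not called in this fit, but was called higher when a replicate block was added to it. The selection bounded the ratio. With scaling by trimmed mean of M-values (TMM), 15 genes were above 1 and 5 below, since *ACS7* and AT2G00840 moved from ratios of 0.931 and 0.979 to 1.022 and 1.077. Over all genes tested, that scaling turned 1834 higher and 3605 lower calls into 3179 higher and 2085 lower.

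**Figure D4:**
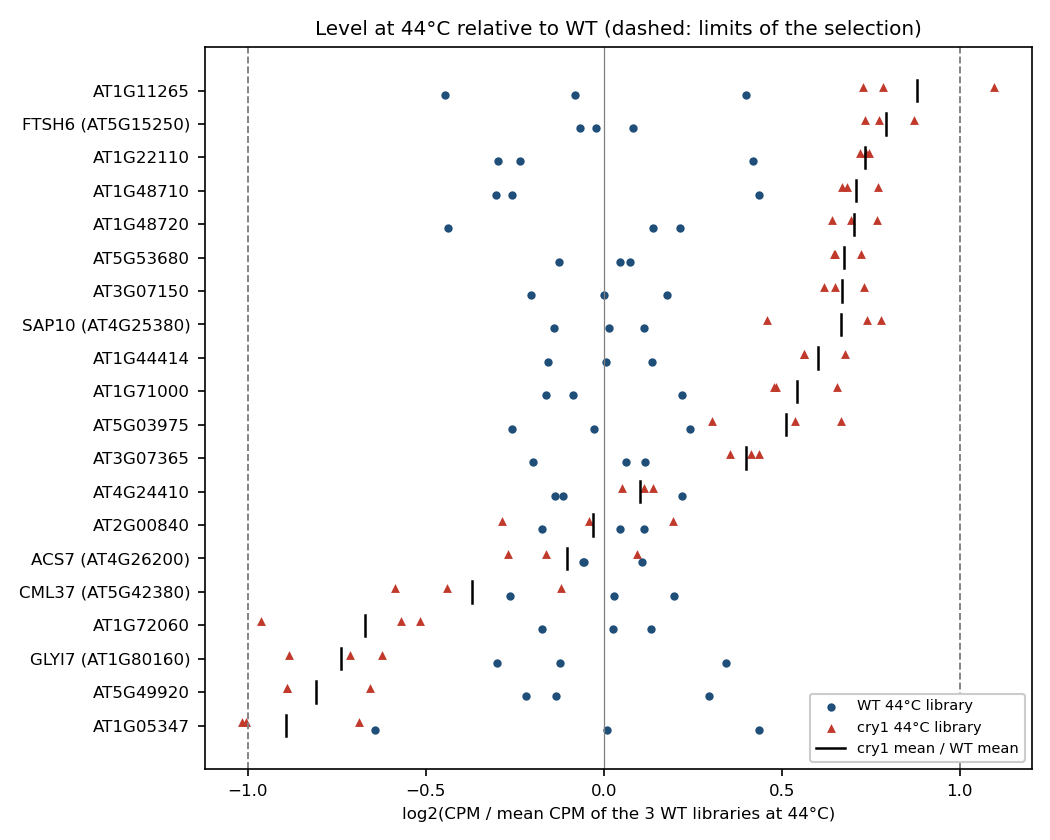
Level at 44°C of each selected gene in the 3 WT libraries (circles) and the 3 *cry1* libraries (triangles), as log2 of the CPM over the mean CPM of the WT libraries, with a bar at the ratio of the 2 means. The dashed lines at -1 and 1 are the ratio limits of the selection, and the ratios run from 0.539 for AT1G05347 to 1.839 for AT1G11265.

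The heat genes around the selection were examined to place these levels. The 17 genes left out by name summed to 18.7 CPM in WT at 22°C and 48013 CPM at 44°C. A list of 24 other heat response genes, of which *HSP101*, *HSP70* and *Hsp70b* were the highest in WT at 44°C (15456, 14481 and 12133 CPM), held 23 genes that were called higher and none lower at 44°C in WT, where 13.3% of all genes tested were called higher. Its median log2 difference was 6.87, and that of all genes -0.85. The exception was *BIP3*, an endoplasmic reticulum chaperone, at 0.350 CPM in WT at 22°C and 0.338 CPM at 44°C. Between genotypes at 44°C, 14 of the 24 were called higher in *cry1* and none lower, against 7.17% and 14.1% of all genes, with a median log2 difference of 0.28 against -0.08. *BIP3* was among the 14, at 0.338 CPM in WT and 1.10 CPM in *cry1* at 44°C. At 22°C it was at 0.350 CPM in WT and 2.41 CPM in *cry1*. That count of 14 fell to 9 without *cry1* replicate 2 at 44°C, and was 19 with the 2 groups at 44°C fitted alone. In these fits 5.44% and 8.02% of all genes tested were called higher. Among the 3 genes, *Hsp70b* was called higher in *cry1* (log2 difference 0.27, adjusted p = 0.0296, edgeR). The edgeR calls did not include *HSP101* (0.29, adjusted p = 0.219) or *HSP70* (0.27, adjusted p = 0.415). For all 3, every *cry1* library at 44°C was above every WT library, as for 11.9% of all genes tested. At 44°C *HSP101* was at 15195 to 15677 CPM in WT and 18014 to 19756 CPM in *cry1*. *HSP70* was at 13948 to 15194 CPM in WT and 16825 to 18585 CPM in *cry1*.

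The limits of the selection cut through a continuous range of levels. Just outside the WT limit at 22°C lay AT5G54165, an Avr9/Cf-9 rapidly elicited protein gene, at 1.23 CPM and then 868 CPM in WT at 44°C, AT1G15125 at 1.29 CPM and AT1G21550, a calcium-binding EF-hand gene, at 1.36 CPM. Just inside it were *GLYI7*, *ACS7* and AT3G07150, at 0.951, 0.797 and 0.694 CPM. Just outside the *cry1* limit at 22°C were AT1G58889 at 1.92 CPM and *HDG7* at 2.63 CPM. Just under the WT limit at 44°C lay AT4G01435 at 9.40 CPM, *CCOAMT* at 8.80 CPM and AT3G61330 at 8.38 CPM, and just above it AT5G53680, AT2G00840 and *ACS7*, at 10.9, 11.4 and 11.6 CPM. The nearest genes beyond the ratio limits were *cPT5* at 0.457 on the lower side and AT1G72660 at 2.35 on the upper side.

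Features that the selection did not use were also described. Of the 20 genes, 11 have no annotated intron, compared with 23.7% of all genes in the table. These 11 include the 3 lncRNAs, the 2 pseudogenes and the RNA AT2G00840, and the comparison was not split by annotated kind. The median exonic length of the 20 genes was 966 bases, compared with 1628 bases for all genes. A gene on the opposite strand overlapped 10 of the 20 (50.0%), compared with 28.3% of all genes, and 4 overlapped a gene that was at least 5 times higher at 44°C than at 22°C in WT. These 4 are the 3 lncRNAs and AT1G11265. Counts were whole in all 12 libraries for 11 genes and not whole in at least 1 library for 9.

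A match of GAANNTTC or TTCNNGAA on either strand was found within 250 bases before the start of 6 of the 20 genes, 30.0% (95% exact binomial interval 11.9 to 54.3%). Each of these patterns is its own reverse complement, and overlapping matches were counted. The share was 52.9% for the 17 heat genes left out by name, 33.3% for the 24 other heat response genes and 16.2% for 26890 genes in the table with 250 bases before the start. The 6 genes were AT3G07365, AT1G71000, *GLYI7*, *CML37*, *FTSH6* and *ACS7*. The match of AT3G07365 lies within the annotated gene *HSP17.4* on the opposite strand, as does most of the stretch searched before AT3G07365. A match of 3 units in a row was found for 1 of the 20 (5.0%) and for 0.4% of all genes. With 500 bases, a window chosen after the data were seen, AT1G22110 and both full COPIA78 copies were added, at 45% against 30.5% of all genes.

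**Figure D5:**
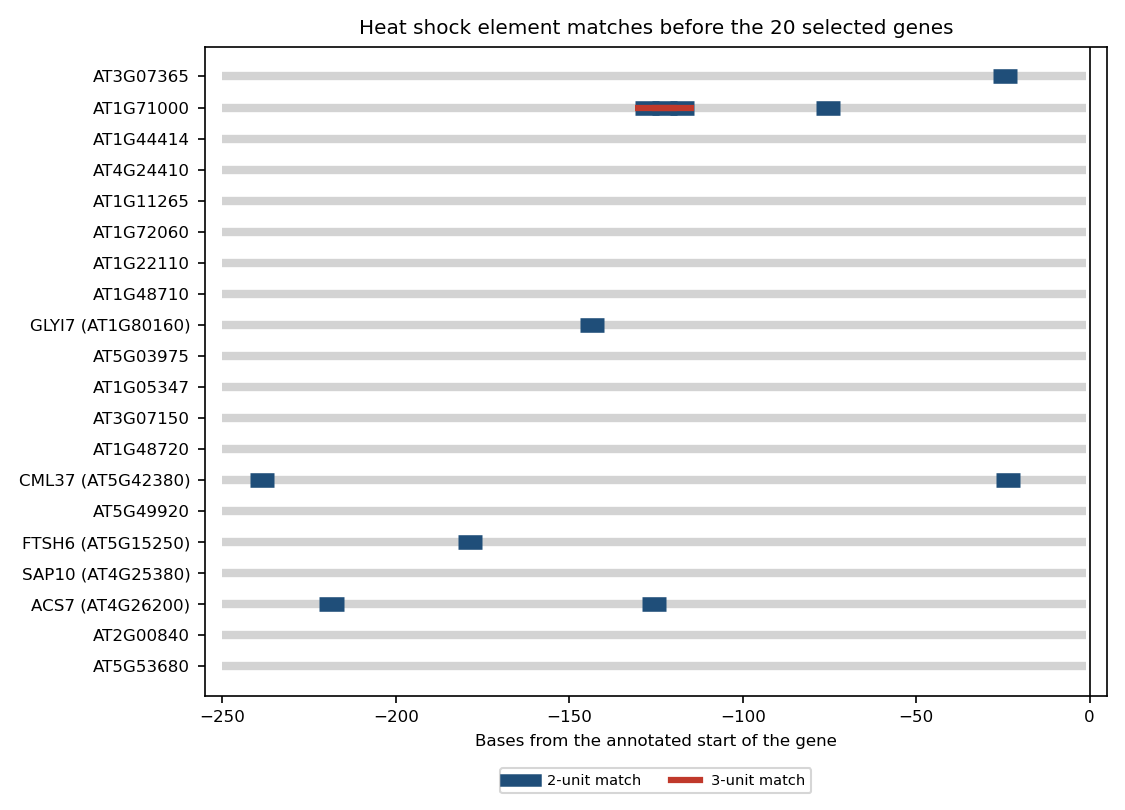
Position of heat-shock element matches in the 250 bases before the annotated start of each selected gene, with grey bars for the sequence searched, blue for 2 inverted units and red for 3. AT1G71000 has a cluster that begins 131 bases before its start, and 14 of the 20 genes have no match in this window.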

How the data were processed

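Libraries from rRNA-depleted RNA of whole seedlings (the labels also give polyA RNA) were prepared with a stranded kit. Reads were aligned and quantified with RSEM and its defaults on TAIR10, per the methods of the study, and the submitters' notes name TopHat2 2.0.11. The authors deposited expected counts per gene in 1 table of 12 libraries, not scaled to depth. CPM was computed from the column totals, and FPKM and TPM with RefSeq exonic lengths (TAIR10.1). Counts were rounded and tested with the quasi-likelihood test of edgeR 4.0.16 (R 4.3.3) in 1 fit of the 4 groups, with library totals as scale. A gene was tested if log2 of its mean FPKM exceeded -5 in at least 1 group, and p-values were adjusted (Benjamini-Hochberg) over 25580 genes, with calls at 0.05. The fit was tested on simulated data. Alternatives were TMM, DESeq2 1.42.0, other filters, 2 groups only, a replicate block and leaving out each library. Each selected gene was named, with the genes nearest each limit. Members and lists were chosen with earlier results of these data known. Floors of 3 counts and intervals cover counting error only.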

Additional observations from a re-analysis of the deposited data

How the results depend on the processing

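The rule itself depended on the scale. With TMM library sizes it kept 32 genes and with median-ratio size factors 31, and 19 of the 20 were kept under either, AT1G11265 being lost at the ratio limit. A WT limit of 5 CPM at 44°C kept 36 genes and one of 20 CPM kept 12. Leaving out a library kept 19 to 21. The median log2 ratio of *cry1* to WT at 44°C over the 20 genes was 0.53, 0.66 with TMM, 0.65 with median-ratio factors, and 0.43 to 0.61 without a library, lowest without WT replicate 1 at 44°C. With the 2 groups at 44°C fitted alone, 5 of the 20 were called lower in *cry1* instead of 3. The share of all genes tested that were called lower was 15.08% instead of 14.09%. The 14 heat response genes called higher in *cry1* became 9 to 16 without a library, and 9 only without *cry1* replicate 2 at 44°C. They became 17 with TMM, 19 with DESeq2 and 19 with the 2 groups at 44°C fitted alone. The share of all genes tested that were called higher moved as well. It was 7.17% in the main fit and 5.44% to 7.38% without a library. With TMM, DESeq2 and the 2 groups alone it was 12.43%, 11.92% and 8.02%. Heat-shock element matches of 3 units were at 5.0%. At 44°C in WT, TMM turned 3407 higher and 13579 lower calls of all genes into 7357 and 8096, with 20 of 20 selected genes higher under each.

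Replicates of the same number did not deviate together in all pairs of groups. Between WT and *cry1* at 22°C the correlations were 0.164, -0.156 and 0.396 for replicates 1, 2 and 3. In the other pairs of groups they ranged from -0.051 to 0.049. With a replicate block, 12 of the 20 were called higher and 3 lower in *cry1*, against 7.04% and 13.72% of all genes tested. Of the heat response list, 14 were called higher and 0 lower. At 44°C in WT, 20 of 20 and 23 of 24, respectively, were called higher, against 13.09% of all genes tested. Depth limits levels at 22°C, where 3 counts are 0.138 to 0.242 CPM.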

Other observations

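Of the silent genes, 6 reached 10 CPM in WT at 44°C but lay outside the ratio limits. *APX2*, a cytosolic ascorbate peroxidase that removes hydrogen peroxide, averaged 36.3 ± 2.70 CPM in WT and 101 ± 12.2 CPM in *cry1* at 44°C (SD, n = 3). AT1G72660, annotated as a P-loop nucleoside triphosphate hydrolase, averaged 43.1 ± 6.39 and 101 ± 5.41 CPM, and AT5G45630, annotated as a senescence regulator, 13.0 ± 1.99 and 32.1 ± 5.45 CPM. On the lower side, AT1G09715, an uncharacterized RNA, averaged 39.4 ± 10.9 CPM in WT and 14.5 ± 1.57 CPM in *cry1*, and AT1G59865 averaged 16.03 ± 3.96 and 5.31 ± 0.630 CPM. AT1G59865 and AT1G09715 lie side by side on chromosome 1, from base 22032313 on. The left-out small HSP gene AT1G59860 ends at base 22032250 and averaged 6527 CPM in WT and 8268 CPM in *cry1* at 44°C. Whether its reads extend into them was not tested. The genes outside the ratio limits were picked by their levels, so the differences are given with no test.

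AT5G05220, an uncharacterized protein gene, was at 5.41, 9.78 and 5.42 CPM in WT at 44°C and averaged 33.3 ± 10.7 CPM in *cry1*, the largest ratio (4.845) among the silent genes that reached 10 CPM at 44°C in either genotype. AT3G04685, an antisense RNA of 176 bases, and AT4G01435 reached 10 CPM in *cry1* but not in WT, at 10.4 and 17.1 CPM against 7.59 and 9.40 CPM. All 176 bases of AT3G04685 lie across *MBF1C* on the opposite strand, which averaged 5274 CPM in WT and 6224 CPM in *cry1* at 44°C, and 9 of its 12 counts were not whole numbers, so the reads of the 2 genes cannot be told apart.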
